A study of Mus musculus with 15 samples.

Results

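The 10 genes described here encode integrin subunits, E-cadherin, a tight junction protein and CD44, and were followed in the RNA of invariant natural killer T (iNKT) cells, lipid-reactive T cells, from 4 lymphoid tissues. They are Cdh1, Tjp1, Itgae, Itga1, Itga4, Itgal, Itgb1, Itgb2, Itgb7 and Cd44, and were taken by name from the 48795 genes listed in each sample. Cdh1 and Tjp1 were chosen because their values were high in thymus and near absent in spleen, so that their levels in these tissues are given as a description, with no test. The other 8 were not chosen on a measured value, but earlier results of these data were known when they were listed. The cells were sort-purified from wild-type C57BL/6 mice aged 6 weeks as cells that bound a CD1d tetramer loaded with an analogue of α-galactosylceramide and carried TCRβ, but neither B220, CD11b, CD11c nor CD8. No group carried a treatment or a transgene, and the groups differ in tissue alone: thymus, spleen and mesenteric lymph node (mLN) with 4 samples each, and inguinal lymph node (iLN) with 3 samples, replicates 2, 3 and 4. The iLN sample of replicate 1 was not analysed here. Replicates 1 and 2 were of batch 2 and replicates 3 and 4 of batch 1, as named in the labels. The labels do not say whether a replicate was 1 mouse or a pool of mice. LNs were briefly digested with enzymes whereas thymus and spleen were pressed through a strainer, so that tissue and digestion cannot be told apart between LNs and the other tissues.

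Integrins are heterodimers of an α and a β subunit that hold leukocytes to matrix and to other cells. In T cells, αE (Itgae, CD103) pairs with β7 and binds E-cadherin on epithelium, α4 (Itga4) pairs with β7 to bind MAdCAM-1 on the vessels of gut and mesenteric tissue or with β1 to bind VCAM-1, α1 (Itga1) pairs with β1 to bind collagen, and αL (Itgal) pairs with β2 as LFA-1, the receptor for ICAM-1 that holds T cells to vessels and antigen-presenting cells. E-cadherin (Cdh1) joins epithelial cells through contacts with itself and is also made by some lymphocytes, ZO-1 (Tjp1) is the scaffold that ties tight junctions to actin, and CD44 is the hyaluronan receptor of activated and memory T cells. α and β chains reach the surface only as pairs, and the RNA of a subunit is not a measure of the pair.

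Total expected counts were between 1152702 (thymus replicate 2, the smallest library) and 8670570 per sample, with a median of 5327351. A list of 10 genes of T and iNKT cell identity summed to between 3111 and 5349 CPM, counts scaled to the size of the library, in every sample. Of the markers of thymic epithelium, which makes E-cadherin and ZO-1 itself, Krt5, Krt14 and Foxn1 were at 0 in every tissue. The list of 10 summed to between 2.94 and 8.54 CPM in thymus and between 2.24 and 8.25 CPM elsewhere. Psmb11 alone averaged 3.45, 3.75, 5.01 and 4.48 CPM in thymus, spleen, mLN and iLN. In thymus replicate 3, Prss16 and Krt8 were at 1.65 CPM and Aire at 1.38 CPM. In all other samples Prss16 was at 0, Krt8 at most 0.718 CPM and Aire at most 0.395 CPM. Epcam was at 1.85, 0, 2.48 and 2.47 CPM in thymus replicates 1 to 4. It was at most 0.407 CPM in spleen, 3.85 CPM in mLN and 1.61 CPM in iLN. Genes of immature thymocytes summed to between 21.8 and 72.0 CPM in thymus, where all 7 had counts, against at most 41.3 CPM in the other tissues. Markers of the NKT17 subset summed to between 282 and 628 CPM in iLN, between 45.6 and 75.3 CPM in mLN and at most 30.1 CPM in thymus and spleen. The other subsets differed too. NKT1 markers summed to 1949 to 2964 CPM in thymus and 1546 to 2887 CPM in spleen. They summed to 1215 to 1625 CPM in mLN and 1092 to 1799 CPM in iLN. NKT2 markers summed to 297 to 344 CPM in thymus and 270 to 413 CPM in spleen. In mLN and iLN the NKT2 sums were 482 to 577 CPM and 478 to 634 CPM. The part of these cells in the values below was not tested, and in bulk samples fewer cells of a type and less RNA per cell cannot be told apart.

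Of the 8 members not chosen on a value, 3 differed among the 4 tissues, the α chains Itgae, Itga4 and Itga1, where 3.38% of the 13600 genes tested were called (edgeR's quasi-likelihood test with batch as a term, Benjamini-Hochberg adjusted p under 0.01, two-sided). The 3 β chains, Itgal and Cd44 did not pass. In pairs of tissues a call also required a fold change over 1.5. Between thymus and spleen 2 of 8 members were called, where 1.32% of all genes were, and both were higher in thymus. Between mLN and spleen the count was 1 of 8 (0.654% of all genes), between iLN and spleen 1 of 8 (1.55%), between mLN and thymus 3 of 8 (1.6%), between iLN and thymus 2 of 8 (1.5%) and between iLN and mLN 2 of 8 (0.471%). Setting the mean of both LNs against the mean of spleen and thymus called 2 of 8, where 1.72% of all genes were called. The median log2 fold change over the 8 members lay between −0.07 (mLN against thymus) and 0.40 (iLN against spleen), and that over all genes between −0.01 and 0.03. These comparisons share samples with each other and are not independent, and the 8 members were listed with earlier results of these data known.

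**Figure D1:**
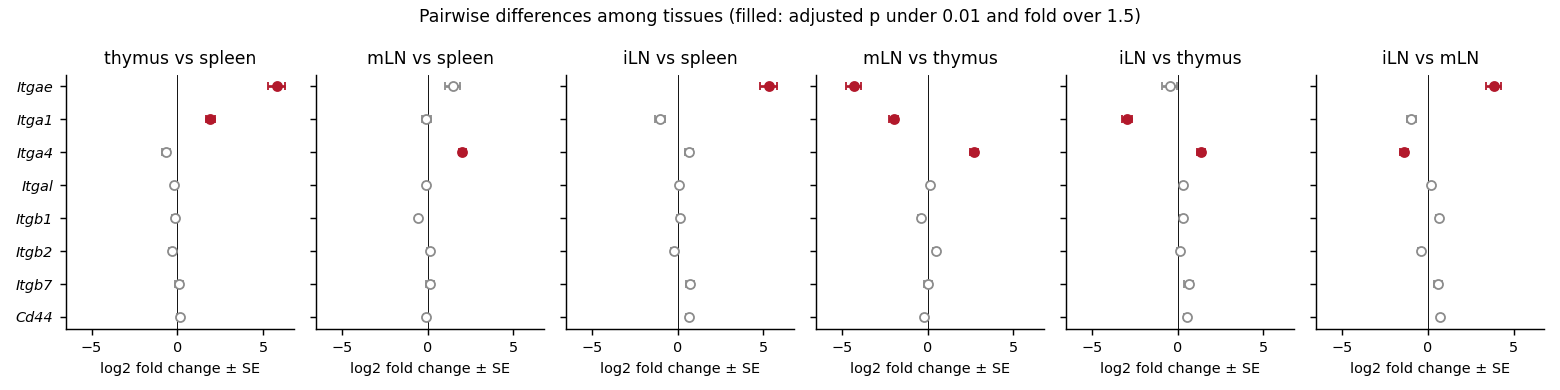
Log2 fold change ± SE (x axis) of the 8 members not chosen on a value (rows) in the 6 pairs of tissues (panels, first-named tissue over the second), with filled red points for called members. Every filled point belongs to Itgae, Itga1 or Itga4, from 5.78 for Itgae in thymus against spleen to −4.32 for the same gene in mLN against thymus.

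E-cadherin RNA was high in thymus alone. Cdh1 (ENSMUSG00000000303, GRCm38 chr8:106603351-106670246, plus strand, protein coding) was at 80.0, 82.3, 100.3 and 106 CPM in thymus replicates 1 to 4. In spleen it was at 0.296, 0.301, 0.249 and 0 CPM, in mLN at 0, 0.435, 2.29 and 4.24 CPM, and in iLN replicates 2, 3 and 4 at 1.79, 2.44 and 0.342 CPM. The lowest thymus sample stood far above the highest sample of any other tissue, and the mLN and iLN ranges overlapped each other. The highest spleen value, 0.301 CPM, and the lowest iLN value, 0.342 CPM, rested on 2 counts each, so that spleen and iLN are not set apart. Over the pooled libraries the thymus level was 393 times that of spleen, which rested on 6 counts, 62.6 times that of mLN (36 counts) and 65.9 times that of iLN (21 counts). Since Cdh1 passed the filter on low counts through thymus, and the LN samples held 0 to 22 counts each, iLN and mLN are given by their values only, with no test. In mLN the batch 1 samples, at 2.29 and 4.24 CPM, stood above the batch 2 samples. Rag1, the recombinase of immature thymocytes, was at 19.3, 22.1, 5.51 and 5.88 CPM in the same thymus samples and at most 0.150 CPM in any other sample. The part of immature thymocytes in the level of Cdh1 was not tested.

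Tjp1 (ENSMUSG00000030516, chr7:65296165-65527781, minus strand, protein coding) followed the same division at a lower level. It was at 19.9, 31.6, 25.3 and 23.5 CPM in thymus replicates 1 to 4, from 43 to 161 counts per sample. In spleen 3 samples were at 0 and replicate 4 held 2 counts (0.407 CPM), in mLN 3 samples were at 0 and replicate 2 held 1 count (0.145 CPM), and all 3 iLN samples were at 0. No sample outside thymus therefore held more than 2 counts. The pooled counts were 420 in thymus, 2 in spleen and 1 in mLN, and the thymus level was at least 115-fold higher than that of iLN, taking 3 counts over the group as the limit that a count of 0 allows. With 0 and 1 counts, iLN and mLN cannot be compared. RSEM's gene length in thymus was between 6059 and 6435 bases, whereas the 2 counts of spleen replicate 4 came with a length of 1253 bases. The long transcripts in GENCODE M21 are coding ones of 6102 and 7049 bases and a nonsense-mediated decay transcript of 5938 bases. The lowest thymus length lay below both coding lengths, and the mix of transcripts was not tested. Gm44792, which overlaps Tjp1 on the same strand, had 14481 counts and means of 163, 177, 158 and 160 CPM in thymus, spleen, mLN and iLN, and did not follow the division of Tjp1. The 250 bases before the RefSeq start of Tjp1 (GRCm38.p6 chr7:65371245-65371494, minus strand, inside the longer GENCODE gene) are shown because Tjp1 had the sharpest division between tissues of the members with an entry in RefSeq's promoter table, which held 6 of the 10 members and neither Cdh1 nor Itgae. Capitals mark both matches to the GC box GGGCGG, searched on both strands, which 32.97% of 32536 promoters of that length hold. There was no match to the RUNX motif TGTGGT (in 14.0% of promoters) or to the E-box CAGGTG (in 17.3%), and a match or its absence is a description of the letters only.
Tjp1: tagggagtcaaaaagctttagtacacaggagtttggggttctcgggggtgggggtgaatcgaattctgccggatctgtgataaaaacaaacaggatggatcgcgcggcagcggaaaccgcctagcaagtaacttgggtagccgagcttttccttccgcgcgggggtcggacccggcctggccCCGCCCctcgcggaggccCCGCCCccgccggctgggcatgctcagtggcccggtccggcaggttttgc

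**Figure D2:**
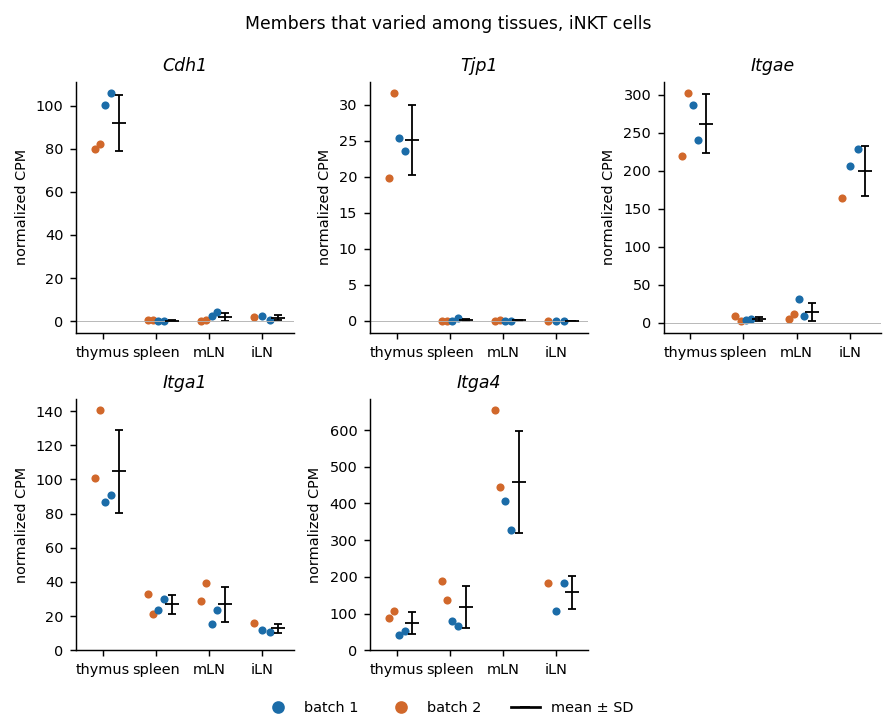
Normalized CPM (y axis, linear, from 0) of Cdh1, Tjp1, Itgae, Itga1 and Itga4 in each sample by tissue, coloured by batch, with the mean and SD in black. Cdh1 and Tjp1 are high in thymus alone, Itgae in thymus and iLN, Itga1 in thymus, and Itga4 in mLN.

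αE, the chain by which T cells bind E-cadherin, was high in both thymus and iLN and low in spleen and mLN. Itgae (ENSMUSG00000005947, chr11:73090583-73147446, plus strand) was at 219, 302, 286 and 241 CPM in thymus replicates 1 to 4 and at 165, 207 and 229 CPM in iLN. In spleen it was at 8.09, 1.503, 3.49 and 4.68 CPM, and in mLN at 4.93, 10.9, 31.6 and 8.48 CPM. The thymus and iLN ranges overlapped, as did those of spleen and mLN, and no sample of the first pair overlapped one of the second. Itgae was higher in thymus than in spleen by 5.78 on the log2 scale (SE 0.49, adjusted p = 5.78e-07), a 55.1-fold difference, and higher in iLN than in spleen by 5.31 (SE 0.49, adjusted p = 6.83e-06). It was lower in mLN than in thymus, with a log2 fold change of −4.32 (SE 0.45, adjusted p = 9.05e-06). The LNs thus differed from each other, and Itgae was 14.4-fold higher in iLN than in mLN (log2 fold change 3.84, SE 0.45, adjusted p = 1.08e-04).

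The remaining differences of Itgae did not pass: mLN against spleen was 1.47 (SE 0.46, adjusted p = 0.143), iLN against thymus −0.47 (SE 0.42, adjusted p = 0.621), and the mean of both LNs against spleen and thymus 0.50 (adjusted p = 0.449), a mean that joins a high and a low LN. Within batch 1 and batch 2, the log2 fold changes were 5.98 and 5.69 for thymus against spleen, 5.70 and 5.02 for iLN against spleen, −3.73 and −5.03 for mLN against thymus, and 3.44 and 4.37 for iLN against mLN, with 1 iLN sample in batch 2. Spleen replicate 1 and mLN replicate 3 were the highest of their groups. Without spleen replicate 1 the differences from spleen were 6.55 in thymus and 6.01 in iLN, and without mLN replicate 3 mLN stood at −5.01 from thymus and iLN at 4.60 from mLN, all still called. The NKT17 list summed to between 282 and 628 CPM in iLN and between 45.6 and 75.3 CPM in mLN. It summed to between 12.3 and 30.1 CPM in thymus and between 6.10 and 13.5 CPM in spleen. The part of NKT17 cells in the level of Itgae was not tested. Haspin, a kinase gene that overlaps Itgae on the opposite strand, was at 28.97 ± 3.93, 5.01 ± 2.32, 6.09 ± 3.07 and 14.98 ± 10.7 CPM (mean ± SD, n = 4, 4, 4 and 3) in thymus, spleen, mLN and iLN, with 1031 counts against 7952 of Itgae. The counting is not stated to use strand, and reads of these 2 genes may have been shared.

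α1, a chain of a collagen receptor, was highest in thymus and lowest in iLN. Itga1 (ENSMUSG00000042284, chr13:114953096-115101964, minus strand) was at 101, 140.4, 87.0 and 90.9 CPM in thymus replicates 1 to 4, at 33.3, 21.5, 23.4 and 30.1 CPM in spleen, at 28.8, 39.6, 15.6 and 23.5 CPM in mLN and at 16.0, 12.2 and 10.9 CPM in iLN. Every thymus sample stood above every other sample, spleen and mLN overlapped, and iLN lay below spleen but overlapped mLN. Itga1 was 3.79-fold higher in thymus than in spleen (log2 fold change 1.92, SE 0.25, adjusted p = 1.21e-04), lower in mLN than in thymus (−1.98, SE 0.25, adjusted p = 7.32e-05) and lower in iLN than in thymus (−2.93, SE 0.30, adjusted p = 1.04e-05). Its level in iLN was −1.01 from that in spleen (SE 0.28, adjusted p = 0.0474) and −0.95 from that in mLN (SE 0.28, adjusted p = 0.0972), neither of which was called, and mLN differed from spleen by −0.06 (adjusted p = 0.958). The mean of both LNs was −1.495 from that of spleen and thymus (SE 0.19, adjusted p = 8.67e-05), where thymus alone of the 2 stood high. Within batch 1 and batch 2, thymus against spleen was 1.72 and 2.11, mLN against thymus −2.19 and −1.80, and iLN against thymus −2.95 and −2.91. Pelo, which overlaps Itga1 on the same strand, had 370 counts against 3413 of Itga1. The 250 bases before the RefSeq start of Itga1 (GRCm38.p6 chr13:115101965-115102214, minus strand) are shown for comparison with the other members that differed among tissues. They held no match to any of the 3 motifs.
Itga1: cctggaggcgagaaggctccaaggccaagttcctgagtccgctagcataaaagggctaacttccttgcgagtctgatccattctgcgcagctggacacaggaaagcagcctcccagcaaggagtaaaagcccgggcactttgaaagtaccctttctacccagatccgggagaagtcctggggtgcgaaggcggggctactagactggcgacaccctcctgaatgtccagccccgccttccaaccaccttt

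α4, the chain of the gut-homing integrin, was the member that set mLN apart. Itga4 (ENSMUSG00000027009, chr2:79255426-79333123, plus strand) was at 653, 445, 407 and 327 CPM in mLN replicates 1 to 4. It was at 88.5, 108, 42.97 and 54.1 CPM in thymus, at 190.1, 136, 78.7 and 66.5 CPM in spleen and at 183, 106 and 184 CPM in iLN. All mLN samples stood above all other samples, whereas the ranges of thymus, spleen and iLN overlapped one another. Itga4 was 4.09-fold higher in mLN than in spleen (log2 fold change 2.03, SE 0.21, adjusted p = 1.02e-04) and 6.52-fold higher than in thymus (2.71, SE 0.22, adjusted p = 3.73e-07). It was higher in iLN than in thymus by 1.33 (SE 0.23, adjusted p = 0.00191) and lower in iLN than in mLN (−1.37, SE 0.23, adjusted p = 0.00372). The mean of both LNs stood 1.68 above that of spleen and thymus (SE 0.16, adjusted p = 3.48e-06). Neither iLN against spleen (0.66, adjusted p = 0.126) nor thymus against spleen (−0.67, adjusted p = 0.129) was called.

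Both iLN calls of Itga4 depended on the samples and on the model. The call of iLN against thymus was lost without batch (log2 fold change 1.12, adjusted p = 0.126) and with only the groups compared (adjusted p = 0.0173). That of iLN against mLN was lost without batch (adjusted p = 0.0542), with only the groups compared (adjusted p = 0.0311) and with the replicate block and gene length (adjusted p = 0.0112). Without thymus replicate 3 or iLN replicate 4 the adjusted p of iLN against thymus rose to at most 0.0148, and without any of mLN replicates 1, 3 or 4 or iLN replicates 2 or 3 that of iLN against mLN rose to at most 0.0396, so that these calls were lost with the direction kept. Within batch 1 and batch 2, mLN against spleen was 2.32 and 1.74, mLN against thymus 2.91 and 2.496, iLN against thymus 1.57 and 0.90, and iLN against mLN −1.34 and −1.60. Itga4 was also the 1 member of 8 that differed between batches, where 3.82% of all genes were called. It was 1.75-fold higher in batch 2 (log2 fold change 0.81, SE 0.16, adjusted p = 0.00267), and both batch 2 samples exceeded both batch 1 samples in thymus, spleen and mLN but not in iLN. Without spleen replicate 4 the adjusted p of the batch difference was 0.0101. Cerkl, which overlaps Itga4 on the opposite strand, was at 7.10 ± 5.11, 8.54 ± 5.21, 47 ± 10.6 and 19.2 ± 11.1 CPM (n = 4, 4, 4 and 3) in thymus, spleen, mLN and iLN, the same order of mLN above iLN above the others, with 1870 counts against 19028 of Itga4. As for Haspin, reads of the 2 genes may have been shared. The 250 bases before the RefSeq start of Itga4 (GRCm38.p6 chr2:79255176-79255425, plus strand) are shown beside those of Itga1 and Tjp1. Capitals mark a GC box (GGGCGG) and, on the other strand, a match to the RUNX motif (ACCACA, the reverse complement of TGTGGT).
Itga4: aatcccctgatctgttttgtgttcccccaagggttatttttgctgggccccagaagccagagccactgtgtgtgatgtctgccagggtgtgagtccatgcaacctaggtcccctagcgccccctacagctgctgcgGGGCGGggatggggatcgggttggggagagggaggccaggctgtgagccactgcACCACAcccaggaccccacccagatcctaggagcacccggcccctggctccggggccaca

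αL, its partner β2 and the other β chains did not pass the test among tissues. Itgal (ENSMUSG00000030830, chr7:127296260-127335138) was between 695 and 1238 CPM over all 15 samples, with means of 822 ± 92.3 in thymus, 958 ± 108 in spleen, 904 ± 135 in mLN and 1055 ± 183 in iLN (SD, n = 4, 4, 4 and 3), and its test over the 4 tissues gave an adjusted p of 0.417. Itgb2 (ENSMUSG00000000290, chr10:77530252-77565708), its partner, was between 513 and 997 CPM, with means of 588 ± 97.8, 744 ± 60.6, 820.2 ± 171 and 628 ± 71.3 in the same order (adjusted p = 0.173). The ranges of every pair of tissues overlapped for both genes.

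Itgb1 (ENSMUSG00000025809, chr8:128685654-128733200), the partner of many α chains, was at 204 ± 13.5, 230.5 ± 38.7, 161 ± 51.9 and 268 ± 63.9 CPM in thymus, spleen, mLN and iLN, with overlap of every pair of tissues (adjusted p over 4 tissues = 0.0809). Its largest pairwise difference was iLN over mLN by 0.67 (SE 0.18, adjusted p = 0.0656). Itgb7 (ENSMUSG00000001281, chr15:102215995-102231944), which pairs with αE and α4, was at 106 ± 34.1, 99.4 ± 21.6, 111 ± 47.3 and 168 ± 1.60 CPM (adjusted p over 4 tissues = 0.208). Its iLN samples lay between 167 and 170.1 CPM, above every thymus and spleen sample but within the range of mLN, which reached 176 CPM. No pairwise difference of Itgb7 was called, the largest being iLN over spleen by 0.72 (SE 0.25, adjusted p = 0.124).

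CD44 was the remaining member whose iLN samples stood apart. Cd44 (ENSMUSG00000005087, chr2:102811141-102901665) was at 547, 476 and 442 CPM in iLN replicates 2, 3 and 4, and between 231 and 358 CPM in the 12 samples of the other tissues, without overlap. Its differences were 0.66 from spleen (SE 0.15, adjusted p = 0.0156), 0.72 from mLN (SE 0.15, adjusted p = 0.0190) and 0.53 from thymus (SE 0.15, adjusted p = 0.0607), none of which was called at the threshold of 0.01. The test over the 4 tissues gave an adjusted p of 0.0131 in edgeR and of 2.02e-04 in DESeq2, the tool named by the study, which called Cd44 over the 4 tissues and in iLN against spleen (0.00103) and against mLN (6.16e-04). Of the edgeR alternatives run, iLN against spleen was called only without mLN replicate 2. NKT17 markers were highest in the same 3 iLN samples, and their part in this level was not tested.

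**Figure D3:**
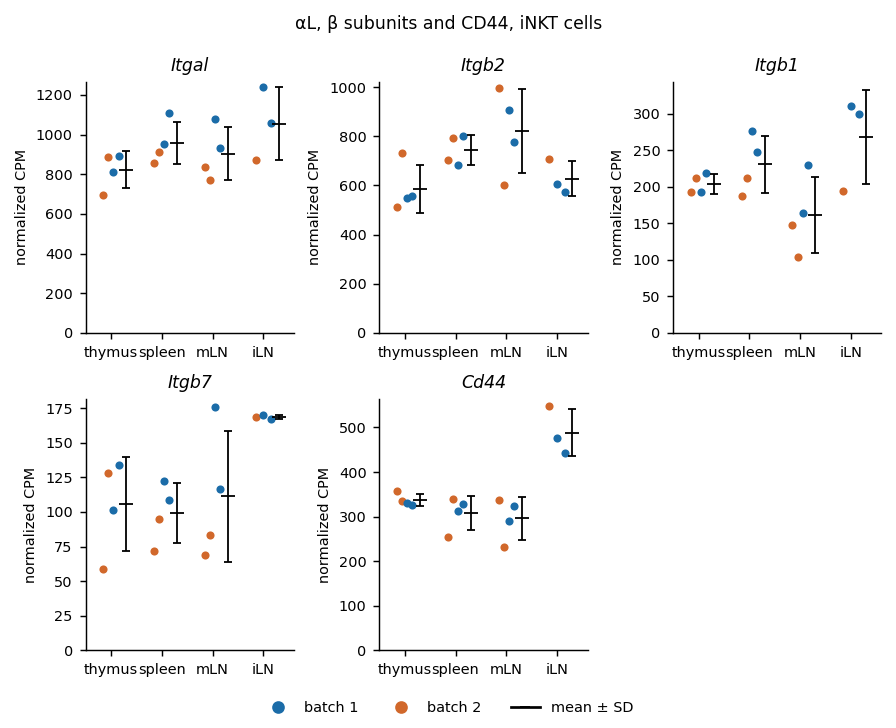
Normalized CPM (y axis, linear, from 0) of Itgal, Itgb2, Itgb1, Itgb7 and Cd44 in each sample by tissue, coloured by batch, with the mean and SD in black. The tissues overlap for Itgal, Itgb2 and Itgb1, whereas the 3 iLN samples of Cd44 (442 to 547 CPM) stand above all the others.

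Levels between genes were compared per length, in TPM, RSEM's abundance scaled to transcript length and to the same sum in every sample. Itgb2 and Itgal were the first 2 of the 10 members in every tissue, followed by Cd44. In thymus Itgb2 was at 289 ± 125 and Itgal at 258 ± 73.1 TPM, so that their order was within their spread. Cd44 (134 ± 27.9), Itgae (90.1 ± 28.4), Itgb1 (71.8 ± 19.6) and Itgb7 (53.3 ± 23.1) followed, the mean ± SD of each overlapping that of the next, while those of Itgal and Cd44 did not overlap. Cdh1 stood at 26.8 ± 3.80 TPM in thymus, beside Itga1 (23.3 ± 10.7) and above Itga4 (11.1 ± 5.60) and Tjp1 (5.29 ± 2.196). In spleen the highest α chain after Itgal was Itga4 at 20.03 ± 13.4 TPM, and Itgae was at 1.62 ± 1.32 TPM. In mLN Itga4 was the fourth of the 10 at 72.9 ± 14.7 TPM, within the spread of Itgb1 (58.8 ± 20.6) and Itgb7 (58.0 ± 23.7). In iLN Itgae was at 70.6 ± 19.5 TPM, within the spread of Itgb7 (87.2 ± 17.1) and above Itga4 (25.7 ± 12.2) and Itga1 (2.91 ± 0.890). These orders are descriptions, with no test.

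The α chains were then set against the β chains with which they pair, as ratios of TPM within each sample. Of 6 ratios, 4 differed among the 4 tissues when samples were permuted within batch (exact permutation test of F, two-sided, 1587600 arrangements) at an adjusted p under 0.01, and 1 more at under 0.05. Itgae to Itgb7 was 2.52, 1.61, 1.93 and 1.23 in thymus replicates 1 to 4 and between 0.665 and 0.935 in iLN, against 0.0107 to 0.0771 in spleen and 0.0487 to 0.122 in mLN (exact permutation test, adjusted p = 2.49e-04). αE RNA therefore exceeded β7 RNA in every thymus sample and in no other sample. Itga4 to Itgb7 was 2.69, 1.60, 0.684 and 1.03 in mLN, against at most 0.827 elsewhere, so that 1 mLN sample lay within the range of spleen (geometric means 0.202, 0.345, 1.32 and 0.269 in thymus, spleen, mLN and iLN, exact permutation test, adjusted p = 9.98e-04). Of the 2 α chains that pair with β7, the RNA of αE was therefore the more abundant per length in every thymus and iLN sample and that of α4 in every spleen and mLN sample.

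The ratios to β1 moved likewise. Itga4 to Itgb1 had geometric means of 0.143, 0.214, 1.28 and 0.251 in thymus, spleen, mLN and iLN (exact permutation test, adjusted p = 3.63e-04), with mLN samples from 0.744 to 1.87 above every other sample, the highest of which was 0.461. Itga1 to Itgb1 had geometric means of 0.311, 0.0727, 0.101 and 0.0305 (exact permutation test, adjusted p = 3.29e-04), with the 4 thymus samples from 0.260 to 0.390 above every other sample. Itgal to Itgb2 stayed within 0.533 and 1.36 (geometric means 0.925, 0.851, 0.721 and 1.05), and its adjusted p of 0.0413 in the exact permutation test was 0.0985 with permutation within replicate number and 0.104 without batch. Itgb7 to Itgb1 did not pass (geometric means 0.711, 0.620, 0.969 and 0.931, exact permutation test, adjusted p = 0.196).

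**Figure D4:**
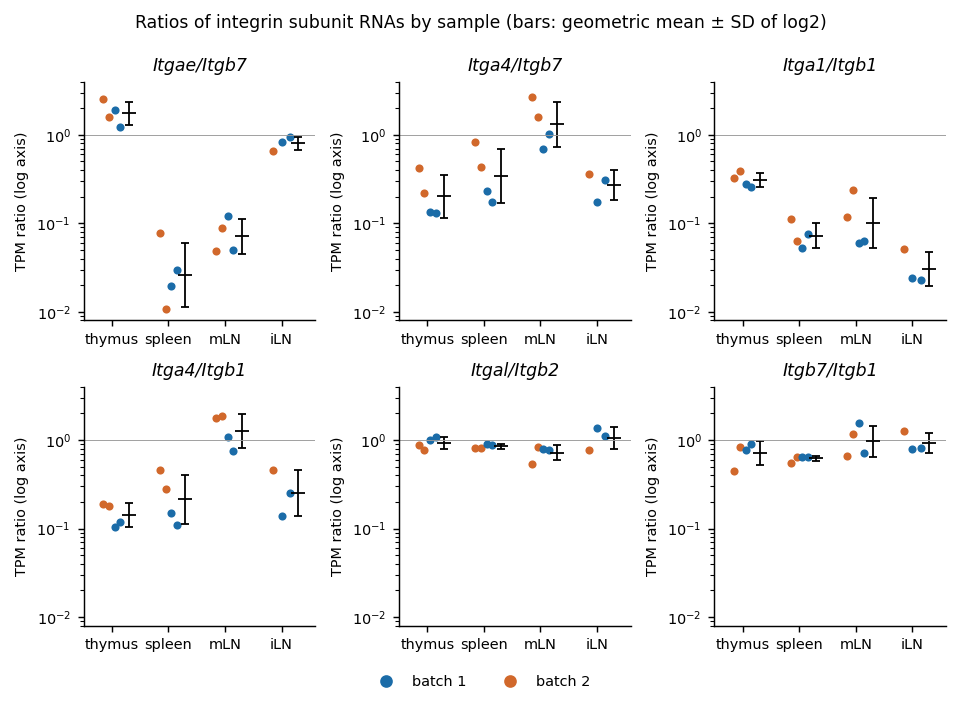
Ratio of the TPM of 2 integrin subunits (y axis, log scale) in each sample by tissue, coloured by batch, with the geometric mean and the SD of log2 in black and a line at 1. Itgae to Itgb7 is over 1 in the thymus samples alone, and both ratios of Itga4 are highest in mLN.

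Gene lengths from RSEM, which shift where the mix of transcripts shifts, were compared for the 6 members with more than 1 length and at least 10 counts in each sample. None differed among tissues (two-sided exact permutation test within batch, adjusted p = 0.938 for each, smallest unadjusted p 0.318, and none at an unadjusted p under 0.05). Itgae had the narrowest range, from 3827 to 3845 bases, where the coding transcript is of 3845 bases and a retained-intron transcript of 3825 bases. Itga4 was between 6968 and 9767 bases, with the full coding transcript of 9767 bases as its highest. Cd44, whose variable exons give many coding isoforms, was at 3324 ± 62.8, 3202 ± 193, 3255 ± 186 and 3273 ± 236 bases in thymus, spleen, mLN and iLN (SD, n = 4, 4, 4 and 3). Cdh1 in thymus was between 4342 and 4430 bases, where the full coding transcript is of 4430 bases.

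Further genes of adhesion, junctions and homing were read from lists of 207 genes, of which 118 passed the filter on low counts and 20 differed among the 4 tissues (16.9%, against 3.38% of all genes). The lists were chosen with earlier results of these data known, so that this share is a description only. Of the 20, 8 were genes of homing and egress and 5 were genes of the control of αE. None of the 6 catenins tested, the partners of E-cadherin inside the cell, was called. Ctnnb1 (β-catenin, a part of the link from cadherin to actin) was at 194 ± 26.2, 187 ± 26.9, 197 ± 64.2 and 197 ± 73.1 CPM in thymus, spleen, mLN and iLN. Ctnna1 (α-catenin) was at 47.3 ± 11.5, 22.4 ± 11.1, 30.5 ± 16.1 and 62.7 ± 35.7 CPM (adjusted p = 0.184). Ctnnd1 (δ-catenin, which steadies cadherin at the membrane) was near 0, at most 0.733 CPM on average. It did not pass the filter on low counts and was not tested. None of 3 other cadherins and none of 7 regulators of E-cadherin and junction genes was called. Of the repressors among them, Zeb1 was at 107 ± 16.0 CPM in thymus and at 115 ± 35.3, 101 ± 15.9 and 129 ± 27.0 CPM in spleen, mLN and iLN (adjusted p = 0.495), and Zeb2 was at most 3.73 CPM on average. Snai1, a further repressor, was at most 0.238 CPM on average, did not pass the filter on low counts and was not tested.

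Of 16 genes of tight and adherens junctions, 2 were called over the 4 tissues, Marveld1 and Ybx3. Ybx3, an RNA-binding protein that docks on ZO-1, was at 92.4 ± 11.8 CPM in thymus against 16.3 ± 9.48 in spleen, 18.9 ± 7.25 in mLN and 29.4 ± 5.31 in iLN (2.52 over spleen on the log2 scale, SE 0.38, adjusted p = 5.49e-04). Klrg1, the other lymphocyte receptor for E-cadherin beside αEβ7, was at 0.624 ± 0.672, 7.42 ± 1.99, 2.18 ± 1.21 and 0.760 ± 0.661 CPM in thymus, spleen, mLN and iLN and did not pass (adjusted p = 0.0512), with its mean highest in spleen, where Itgae was lowest.

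Among the remaining integrin genes, none of 5 α chains was called and the 1 β chain tested was. Itgb3, the β chain of the vitronectin receptor, was at 105 ± 4.67 CPM in thymus against 293 ± 40.4 in spleen, 217 ± 67.6 in mLN and 312 ± 62.9 in iLN (−1.48 from spleen in thymus, SE 0.20, adjusted p = 1.48e-04), the reverse of Itgae and Itga1 in thymus. Of 27 genes of integrin activation and its link to actin, 2 were called over the 4 tissues. Flna, the filamin that binds β tails, was higher in thymus (285 ± 40.9 CPM) and iLN (327 ± 46.05) than in spleen (131 ± 16.0), by 1.11 (adjusted p = 9.71e-04) and 1.29 (adjusted p = 5.32e-04), and was at 177 ± 49.8 CPM in mLN. Zyx, zyxin of focal adhesions, was lower in mLN (96.3 ± 25.0 CPM) than in thymus (248 ± 76.7), with a log2 fold change of −1.31 (adjusted p = 0.00216). None of 6 integrin ligands was called.

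Homing and egress genes held 8 of 15 called over the 4 tissues. Ccr9, the chemokine receptor for the small intestine, was at 336 ± 103 CPM in mLN, 178 ± 36.3 in spleen, 41.2 ± 25.0 in thymus and 33.95 ± 10.9 in iLN. It was higher in mLN than in thymus by 3.15 (SE 0.22, adjusted p = 4.94e-08) and lower in iLN than in mLN (−3.15, SE 0.24, adjusted p = 1.32e-06), and like Itga4 it was higher in batch 2, by 0.90 (SE 0.15, adjusted p = 9.07e-04). S1pr1, the sphingosine receptor of egress, was at 17.9 ± 4.42, 33.9 ± 11.3, 42.8 ± 13.3 and 91.9 ± 30.9 CPM in thymus, spleen, mLN and iLN (iLN over thymus 2.19, SE 0.25, adjusted p = 3.33e-05). Cd226, an adhesion receptor of the nectin system, was highest in spleen at 209 ± 18.3 CPM and lowest in thymus at 80.1 ± 22.6 CPM (−1.42, adjusted p = 2.40e-05). Rgs2, a brake on G-protein signals, was at 150.0 ± 26.3, 35.6 ± 7.21, 85.5 ± 20.7 and 119 ± 15.5 CPM, lowest in spleen.

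Of 17 genes of the pathways known to control αE, mostly of TGF-β signalling, 5 were called over the 4 tissues, Tgfbr3, Skil, Ski, Runx1 and Ahr. Tgfbr3, the TGF-β co-receptor betaglycan, was at 98.5 ± 20.2 CPM in iLN, 35.7 ± 7.66 in mLN, 28.4 ± 14.4 in thymus and 8.69 ± 4.13 in spleen (iLN over spleen 3.35, SE 0.37, adjusted p = 2.33e-05). Skil and Ski, which restrain the pathway and are in part its targets, were lowest in spleen, at 64.2 ± 9.79 and 98.7 ± 26.9 CPM, against 172 ± 16.7 and 220.1 ± 60.6 CPM in thymus (differences of 1.41 and 1.14, adjusted p = 1.34e-04 and 0.00109). Runx1, of the RUNX family that acts on the αE gene, was lower in thymus (113 ± 17.4 CPM) than in spleen, mLN and iLN (233 ± 54.6, 252 ± 71.0 and 238 ± 64.3), at −1.03 from spleen (SE 0.14, adjusted p = 2.31e-04). In mLN Skil was at 202 ± 9.27 and Ski at 201 ± 28.8 CPM. Among the partners and regulators of CD44, Gcnt1, a glycosyltransferase that builds selectin ligands, was at 34.8 ± 5.33 CPM in iLN against 4.39 ± 1.15 in spleen (3.04, SE 0.47, adjusted p = 8.93e-04), and Msn, moesin, which ties CD44 to actin, was higher in iLN than in spleen by 0.88 (SE 0.16, adjusted p = 0.00300). A further gene of that list, Stab2, was called over the 4 tissues.

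**Figure D5:**
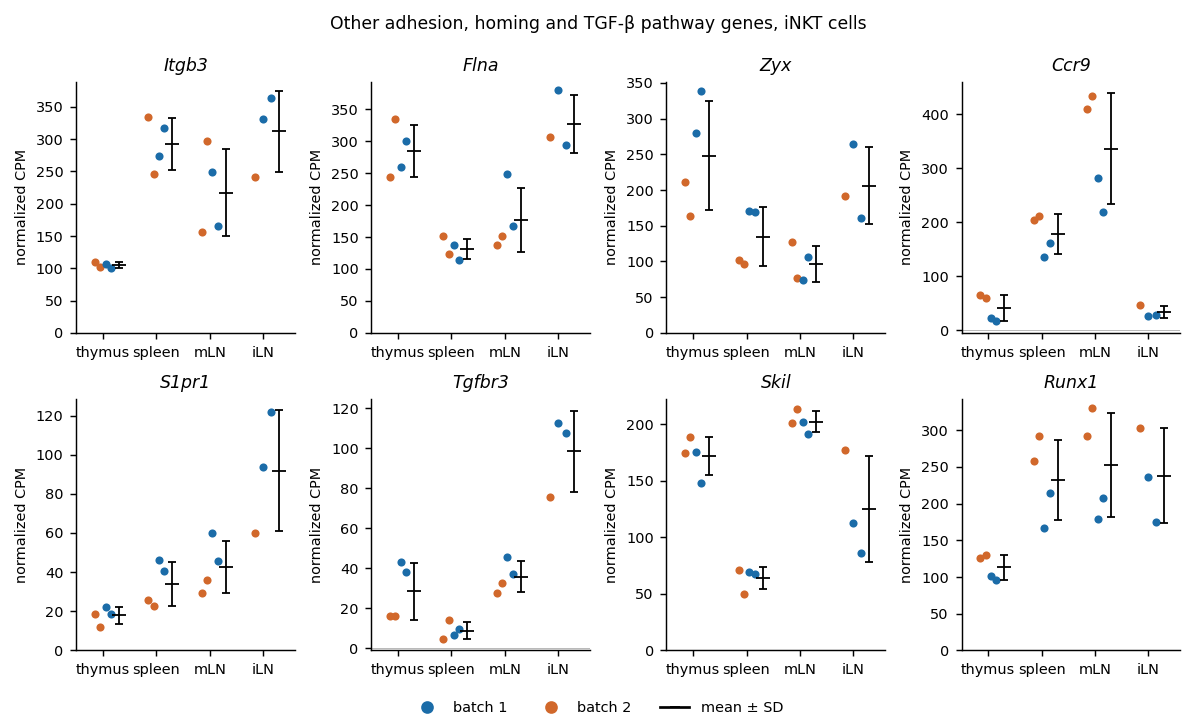
Normalized CPM (y axis, linear, from 0) of 8 genes of the adhesion, homing and TGF-β lists in each sample by tissue, coloured by batch, with the mean and SD in black. Ccr9 is highest in mLN, Tgfbr3 and S1pr1 in iLN, and Itgb3 and Runx1 are lowest in thymus.

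The genes whose pattern was most like that of a member were sought among the 11260 genes that reached 5 CPM on average in some tissue, by Pearson's r of log2(CPM + 1) over the 15 samples. For Cdh1 these were Cd244a (r = 0.957), Tjp1 (0.955) and Klra3 (0.951), and for Tjp1 they were Styk1 (0.987), Ifitm2 (0.972) and Fgl2 (0.963). Styk1, a receptor-like kinase gene, was at 139.5 CPM in thymus on average and at most 1.21 CPM elsewhere. For Itgae they were St6gal1, a sialyltransferase (r = 0.958), Flna (0.944) and Capg, an actin-capping protein (0.938), all higher on average in thymus and iLN than in spleen and mLN. For Itgb7, which varied less, they were Dhx37 (0.880), Pigs (0.875) and Prr13 (0.842). The 15 points share libraries and tissues, so that these values rank patterns and are no evidence of a link between the genes. Cdh1 and Tjp1 were both chosen as high in thymus and near absent in spleen, so that their r of 0.955 follows in part from that choice.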

How the data were processed

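RNA of sorted iNKT cells was sequenced from 15 samples in 4 tissues and 2 batches, with libraries made by the NuGEN Ovation Ultralow kit. The authors trimmed reads with Cutadapt 1.7.1 and ran RSEM 1.2.31 with Bowtie2 2.2.9 on GRCm38.p6, and the annotation release and any use of strand are not given in the sources used here. The expected counts that the authors deposited are RSEM's estimates of the fragments of a gene. The deposited TPM values are those estimates per effective length, scaled to 1 sum in every sample. The deposited FPKM values are per effective length and per fragments of the sample, and served in an alternative. The deposited gene lengths are the other measure used.

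Expected counts were rounded, and 13600 genes passed filterByExpr of edgeR 4.0.16 (limma 3.58.1, R 4.3.3). All 10 members passed, Cdh1 and Tjp1 through thymus, where they are high. TMM factors were between 0.755 and 1.18, CPM were scaled by them, and the robust quasi-likelihood model held tissue and batch, as the study's methods do. The threshold was an adjusted p (Benjamini-Hochberg, over all genes tested) under 0.01 with a fold change over 1.5. The scripts were tested on simulated data. Total counts were between 1152702 and 8670570, which sets the precision of low genes. Replicates of a tissue differed by at least 7.33 times the counting error (chi-square per degree of freedom), so that no library appeared more than once within a tissue. Libraries of different tissues were not compared in this way. The labels do not say whether replicates are separate animals, so that p-values measure the spread between these samples. Mitochondrial ribosomal RNA took between 10.5% and 23.1% of counts. Coordinates are of GENCODE M21 on GRCm38, which differs from the authors' annotation in the lengths of Itga1 and Itgb7. Ratios and lengths were compared by exact permutation within batch (scipy 1.17.1).

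The members and the gene lists were chosen with earlier results of these data known. Named are all members, up to 4 genes per list that were called in a pair of tissues with a mean of at least 5 CPM (those with the smallest p over the 4 tissues), the fixed genes Klrg1, Ctnnb1, Ctnna1, Ctnnd1, Snai1, Zeb1 and Zeb2 (1 further fixed gene is not reported here), and the 3 genes most like each of 4 members. Marveld1, Stab2, Ahr, Rag1, the other immature thymocyte genes and the genes overlapping members were named after their values were seen. The alternatives were DESeq2 1.42.0, RLE normalization, other filters on low counts, no batch, a replicate block (with and without gene length), only the groups compared, thinned libraries, no mitochondrial ribosomal RNA, and leaving out each sample. For the ratios they were FPKM, a pseudocount and counts without length. Each batch alone was added after the data were seen.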

Additional observations from a re-analysis of the deposited data

Results flagged for a closer look

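Of 30 sets of 4 samples (each member in thymus, spleen and mLN), 3 held a sample far from the other 3. The rule's rate of about 1 in 20 is for continuous values and does not apply to these sets. Where 3 samples are at 0 and 1 is not, the rule flags that sample whatever its count. Cdh1 and Tjp1 were also chosen on their spleen values. Cdh1 in spleen replicate 4 was at 0 CPM, against 0.249 to 0.301 CPM in the other spleen samples, which held 1 to 3 counts each. Tjp1 in spleen replicate 4 was at 0.407 CPM, from 2 counts, where the other spleen samples were at 0. Tjp1 in mLN replicate 2 was at 0.145 CPM, from 1 count, where the other mLN samples were at 0. All 3 rest on differences of at most 3 counts.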

How the results depend on the processing

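No called difference of a member, nor those of Cd44 in iLN, changed direction under any alternative run, and the counts of called members (of 8) over the 4 tissues and in mLN against thymus stayed within 1.5 times their value. The mLN against spleen count was 2 without a filter on low counts, with Itgae added. The iLN against spleen count was 2 in DESeq2, with Cd44 added. The iLN against thymus count was 1 without batch and 1 with only the groups compared, and the iLN against mLN count was 1 without batch, 1 with only the groups compared and 1 with the replicate block and gene length, Itga4 being lost each time. The adhesion lists held 36 called genes without a filter, against 20. In batch 1 alone the counts were 1 (thymus against spleen), 0 (mLN against spleen), 1 (iLN against thymus) and 1 (iLN against mLN). In batch 2 alone, with 1 iLN sample that is assumed to vary like the other groups, they were 1 (thymus against spleen) and 0 in mLN against spleen, iLN against spleen, iLN against thymus, iLN against mLN and LNs against spleen and thymus. Fewer samples entered these fits. Leaving out each sample in turn, the counts were 2 to 2 (thymus against spleen), 1 to 1 (mLN against spleen), 1 to 2 (iLN against spleen), 3 to 3 (mLN against thymus), 1 to 2 (iLN against thymus), 1 to 2 (iLN against mLN), 2 to 2 (LNs), 3 to 3 (4 tissues) and 0 to 1 (batch), with 4 to 5 for the ratios and 0 to 0 for the lengths. Itgal to Itgb2 passed 0.05 in the exact permutation test without mLN replicate 2 and without iLN replicate 2 only. Depth limits Cdh1 and Tjp1 outside thymus, and the planned test of both between LNs is not reported, since they passed the filter on low counts through thymus.

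A replicate block, used instead of batch, gave 2, 1, 1, 3, 2 and 2 called members in the 6 pairs, as with batch, 3 over the 4 tissues, 19 list genes and 4 ratios. Deviations of samples with the same number from their tissue means had Pearson's r (across genes, which are not independent) between 0.0004 and 0.301 in 21 pairs, 15 of them over 0.1. The mean r was 0.138, against 0.125 for other samples of the same batch, with 16 of 21 pairs over 0.1. The ranges of r overlapped, so that these values cannot decide whether samples with the same number came from the same mice. The samples were treated as sharing only a number.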
